A study of Homo sapiens with 8 samples.

Results

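SAS is an established human cell line from a squamous cell carcinoma of the tongue. SAS cells received 25 nM of 1 of 4 small RNAs: a mimic of miR-629-3p, of miR-210-3p or of miR-874-3p, or the negative control RNA (NC). Each RNA was represented by 2 whole-transcriptome arrays, so the series holds 8 arrays. All 8 enter here, with the 2 NC arrays set against the 6 mimic arrays together. A gene was counted when its difference from NC had the same sign for each of the 3 miRNAs. Such a pattern describes either what all mimics share or what is peculiar to the control RNA, and the design has no cells without transfection that could tell these apart. The sample labels give 48 h to RNA extraction, while the methods state a day. The methods also name the cells SAS/GFP, a derivative with a GFP vector, so GFP would be common to all 4 groups. According to the methods, the mimics came from Dharmacon and NC from Applied Biosystems. Supplier and control RNA therefore cannot be told apart.

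A miRNA mimic is a short double-stranded RNA. One of its strands is loaded into an Argonaute protein and pairs, chiefly through its seed, with messenger RNAs, which are then degraded or translated less. A negative control RNA is designed to enter the cell in the same way without pairing well to known transcripts. Such RNAs enter by lipid transfection, and cells carry sensors of double-stranded RNA (TLR3 in endosomes, RIG-I and MDA5 in the cytoplasm, PKR) that can start an interferon response. The comparison of NC with several mimics at once asks which genes separate the control from every mimic, whatever its seed.

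The mature sequences of the 3 miRNAs are shown because a response that follows the seed would differ between them. They are from RefSeq on GRCh38.p14, written 5′ to 3′, and capitals mark the seed, bases 2 to 8.
miR-629-3p: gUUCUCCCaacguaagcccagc
miR-210-3p: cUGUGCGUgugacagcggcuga
miR-874-3p: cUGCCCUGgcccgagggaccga

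The genes lie at chr15:70079387-70079408, chr11:568112-568133 and chr5:137647582-137647603, all on the minus strand. No seed was shared. The seed of miR-874-3p had the same base as that of miR-210-3p at 3 of 7 positions and as that of miR-629-3p at 3 of 7. The seeds of miR-210-3p and miR-629-3p matched at 2 of 7. The sequence of NC was not given in the sources used here.

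The arrays were Agilent 1-colour arrays with 58201 gene probes, and values are log2 signals relative to the 75th percentile of the same array. All 8 arrays lay on 1 slide. On it, slide row 1 held miR-629-3p and miR-210-3p, and row 2 held miR-874-3p and NC. The NC arrays had the fewest probes well above background, 24980 and 24559, against 25111 to 29008 on the mimic arrays. After scaling, the 22301 probes that were not detected had medians of -4.91 and -4.88 on the NC arrays and of -5.67 to -4.87 on the mimic arrays. No spot was saturated. In 879 genes the NC replicates were 2-fold or more apart, a count that lay between 378 for miR-629-3p and 954 for miR-874-3p. All 10 markers of squamous epithelium were well above background on all 8 arrays. Of the markers of other cell types, COL1A1 and PDGFRB of 6 fibroblast genes, PTPRC and CD14 of 5 leukocyte genes, PECAM1, VWF and CDH5 of 4 endothelial genes and PMEL and DCT of 4 melanocyte genes were measured. The labels do not say whether the 2 samples of a group came from separate cultures, so p-values measure only the spread between these samples. Precision is limited by the number of arrays.

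A small share of genes was called between the mimics and NC. Of 21283 genes tested, 435 (2.04%) passed an adjusted p under 0.05 in limma, with Benjamini-Hochberg adjustment, and had one sign against each miRNA. These were 288 genes (1.35%) higher with the mimics and 147 (0.691%) lower. Of them, 74 higher genes were detected on neither NC array and 28 lower genes on no mimic array. Such genes entered the test only through the group where they were high, so their calls are no evidence of a difference. At the study's kind of threshold, an unadjusted p under 0.05 and 2-fold, 250 genes (1.17%) were higher and 106 (0.498%) lower. Among genes detected on all 8 arrays, 38 were higher and 41 lower at this threshold. One sign by itself, with no test, was seen in 5087 genes higher (23.9%) and 3760 lower (17.7%), or 8847 (41.6%) together. All 6 mimic arrays lay above both NC arrays in 1543 genes (7.25%) and below both in 1157 (5.44%), which is 2700 (12.7%) in all. Among the called genes this held for 262 of the 288 higher and 131 of the 147 lower.

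NC was not the group that stood farthest apart. A difference of one sign means that the NC mean was the highest or the lowest of the 4 group means. That was so in 41.6% of genes for NC, in 41.5% for miR-874-3p, in 54.9% for miR-210-3p and in 62.0% for miR-629-3p. The lower shares were those of the groups in slide row 2 and the higher ones those of row 1. Group and slide row cannot be told apart in this ranking. The mimics also differed from each other. By limma's F test across the 3 miRNAs, which leaves the NC means aside, 5626 genes (26.4%) passed an adjusted p under 0.05. Of the called genes, 210 of 288 higher (72.9%) and 82 of 147 lower (55.8%) did so, which left 78 higher and 65 lower genes with no call of a difference between the mimics.

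Genes higher with all 3 mimics included a cytokine, several long noncoding RNAs, an ion channel and a matrix protease. IL11, a cytokine of the interleukin-6 family, had log2 signals of -0.37 and -0.34 on the NC arrays. They were 2.26 and 1.97 with miR-629-3p, 2.66 and 2.37 after miR-210-3p, while miR-874-3p gave 0.51 and 0.37. Every mimic array was above both NC arrays, and the miR-874-3p arrays lay nearest to them. The mean difference was 2.04 ± 0.12 (SE, n = 6 and 2 arrays), or 4.12-fold, with an adjusted p of 0.0052 in limma. The mimics differed from each other in IL11 by up to 2.08 on the log2 scale (limma adjusted p = 0.00322). Its probe lies at chr19:55875788-55875847 on hg19, minus strand.

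LURAP1L-AS1, a long noncoding RNA antisense to LURAP1L, read -1.14 and -1.19 with NC. The miR-629-3p arrays read 0.41 and 0.42, the miR-210-3p arrays -0.22 and -0.34, the miR-874-3p arrays -0.06 and -0.32. No mimic array overlapped with NC, and the smallest difference, with miR-210-3p, was 0.88. A second probe of the gene differed by 1.51, in the same direction as the 1.14 of the main probe (limma adjusted p = 0.0118). The main probe lies at chr9:12790622-12790681 on hg19, minus strand, and is shown because 2 probes gave the same direction for this RNA.
LURAP1L-AS1 probe: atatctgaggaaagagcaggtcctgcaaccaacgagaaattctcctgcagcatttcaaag

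ANO2, a calcium-activated chloride channel, differed by 0.86 with miR-629-3p, by 1.18 with miR-210-3p and by 1.03 with the third mimic. Its log2 signals were 2.66 and 2.85 with NC, and all 6 mimic arrays read 3.53 or more, with 3.53 and 3.71 for miR-629-3p and 3.89 and 3.68 for miR-874-3p. The 3 mimics did not differ from each other at the threshold in limma (adjusted p = 0.205), and the mean difference from NC was 1.02 ± 0.10 (SE), 2.03-fold (adjusted p = 0.0198). ADAMTS6, a secreted metalloprotease, was higher by 2.19 after miR-629-3p, by 0.59 with miR-210-3p and by 0.60 with miR-874-3p. Its second probe gave a mean difference of 1.11 against 1.13 for the main probe.

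The other leading genes rose by less than 2-fold, apart from RIMBP3 (2.37-fold). NBEA, which encodes neurobeachin, a protein of membrane traffic, rose by 0.91 ± 0.10 (SE) on the log2 scale. RIMBP3, known from developing sperm, rose by 1.25 ± 0.20, and near-identical copies of this gene make its probe uncertain. The noncoding RNAs CASC21 and SBF2-AS1 rose by 0.96 and 0.77. LSMEM1, a small membrane protein, rose by 0.73. SLC45A4, a solute carrier, rose by 0.72 on its brightest probe, while another probe of it, also detected on all 8 arrays, differed by -0.25.

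Genes lower with all 3 mimics than with NC were mostly changed by less than 2-fold, and several belong to innate immunity. TLR3, the endosomal sensor of double-stranded RNA, had log2 signals of 0.33 and 0.39 with NC. The mimic arrays read -0.31 and -0.50 (miR-629-3p), -0.42 and -0.44 (miR-210-3p), and -0.57 and -0.41 (miR-874-3p). They lay close together and below both NC arrays. The difference was -0.80 ± 0.08 (SE), 1.74-fold lower, with an adjusted p of 0.0196 in limma, and the mimics did not differ at the threshold (adjusted p = 0.757). The probe lies at chr4:187005890-187005949 on hg19, plus strand.

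BTN3A2, a butyrophilin of the immunoglobulin superfamily, read 2.31 and 2.32 with NC and 1.31 to 1.69 on the mimic arrays. Its differences were -0.69 for miR-629-3p, -0.76 for miR-210-3p and, largest in size, -0.82 for miR-874-3p, and a second probe gave a mean of -0.54. UBD, a ubiquitin-like protein that cytokines induce, read -0.01 and -0.19 with NC. The miR-629-3p arrays read -2.76 and -2.09, those of miR-210-3p -1.77 and -1.78, and those of miR-874-3p -0.83 and -0.41. Its mean difference was -1.51 ± 0.20 (SE). The mimics differed in UBD (limma adjusted p = 0.014), which they did not at the threshold in BTN3A2 (adjusted p = 0.702).

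CARD17, a transcribed pseudogene in RefSeq from the caspase-1 cluster, read 1.00 and 1.07 with NC and 0.25 to 0.45 on the mimic arrays. FAM3C, a secreted cytokine-like protein, was lower by 0.70 on the log2 scale. The proteolipid MALL was lower by 0.63, the orphan receptor GPR25 by 0.66, KIAA1644, a membrane protein, by 0.66 and the zinc finger gene ZNF449 by 0.56. ZNF710, another zinc finger gene, fell by 1.68, the most of these, from -0.84 and -0.31 with NC to between -2.38 and -2.12. Its NC spots were uneven: the ratio of pixel SD to pixel mean within a spot was at least 0.395 on both, against a median of 0.195 over all tested genes. KIAA1644 had a ratio of at least 0.334 on both. Among the remaining leading lower genes the highest was the 0.274 of GPR25.

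**Figure D1:**
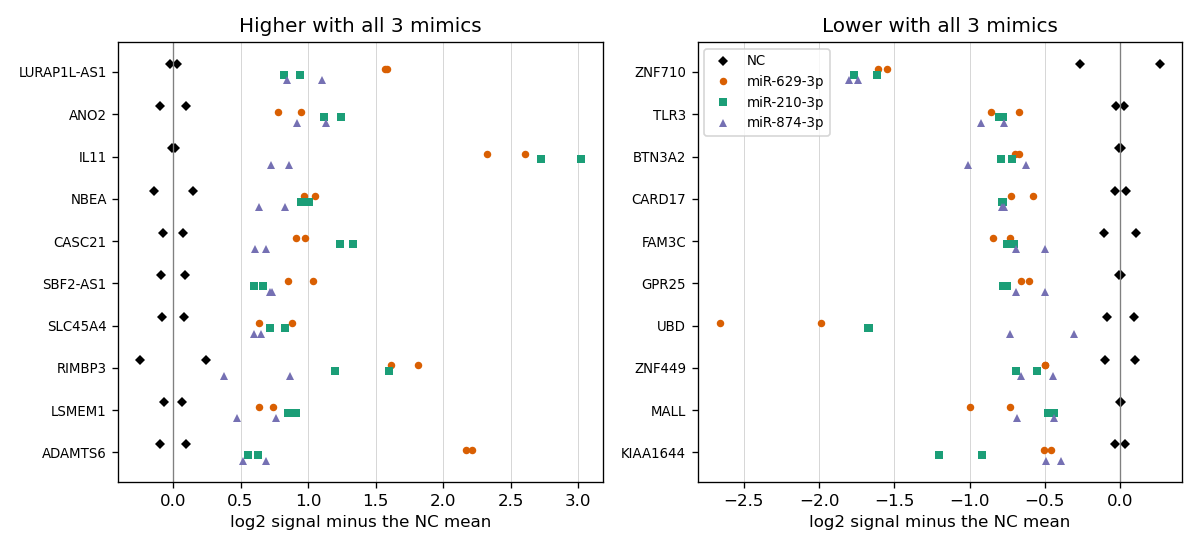
Log2 signal of each array minus the NC mean of the gene (x axis) for the 10 leading genes in each direction (y axis); each point is 1 array, 2 per group, and there are no error bars. The 6 mimic arrays lie on one side of both NC arrays in all 20 genes because the genes were chosen that way, and IL11, ADAMTS6 and UBD are spread widest among the mimics.

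The largest fitted differences of all were in transcripts detected on the NC arrays alone, and the NC spots of most of these were uneven. Of the 147 lower genes, 28 were detected on both NC arrays, but on no mimic array. The long noncoding RNA lnc-PML-1 had log2 signals of 0.58 and 0.23 with NC and -5.51 to -5.00 on the mimic arrays, which is at least 13.7-fold lower with the mimics. This fold sets each mimic array at its dimmest detected signal. On the same basis lnc-TPSG1-2 was at least 14.9-fold, lnc-GBE1-6 at least 10.8-fold and lnc-TRIM55-1 at least 15.8-fold lower. All 28 passed the filter on detection through the NC arrays alone, so they had to be higher there, and their calls in limma are no evidence of a difference.

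Protein-coding genes among the 28 included GUCA1A and OR8G1, which serve in photoreceptor signalling and olfaction, CYP3A5, a drug-metabolizing cytochrome, RAB39A, PRAMEF4 and CLSTN2. In 27 of the 28 genes the ratio of pixel SD to pixel mean exceeded 0.3 on both NC spots, against 3.88% of all tested genes, and its median was 0.562. Their probes also lay together on the array. The first 128 of 384 spot rows held 27 of the 28, against 33.4% of tested genes. None of the 10 other probes for these 28 genes was detected on both NC arrays.

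The same region differed between the slide rows. Detected spots with a ratio over 0.3 in those 128 rows numbered 1817 to 2706 on the arrays of slide row 2 and 811 to 1159 on those of row 1. Probes bright on exactly 2 arrays of different groups numbered 29 to 64 for pairs within slide row 2, 11 to 17 within row 1 and 3 to 14 across rows. The NC pair had 44 such probes, while the other replicate pairs had 35 to 82. The part of slide row and spot evenness in these 28 calls was not tested. Without the first 128 spot rows, 55 genes were called lower, and those lower by 2-fold at an unadjusted p numbered 14 and not 106. Without spots of a ratio over 0.5 the latter count was 31. Among the 112 lower genes detected on all 8 arrays, 4.46% had uneven NC spots, against 3.88% of all genes, and 42.0% lay in the first 128 rows, against 33.4%. The 7 lower genes detected on some mimic arrays all lay in those rows, and 71.4% of them had uneven NC spots. Of the leading lower genes, TLR3 (spot row 26), CARD17 (15), GPR25 (13), ZNF710 (57) and KIAA1644 (90) lay there. BTN3A2 (157), FAM3C (322), UBD (162), ZNF449 (252) and MALL (312) did not. Among the called interferon effectors described below, IFITM2 (29) and BST2 (52) lay there, while IFITM3 (140), UBE2L6 (247) and USP18 (330) did not.

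Probes of 3 of these transcripts are printed, since their differences were the largest after that of lnc-TRIM55-1. They are 60 bases long and lie on hg19 at chr16:1209788-1209847 (minus strand), chr15:74342405-74342464 (plus strand) and chr3:83825762-83825821 (minus strand).
lnc-TPSG1-2 probe: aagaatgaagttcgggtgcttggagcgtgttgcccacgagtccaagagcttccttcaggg
lnc-PML-1 probe: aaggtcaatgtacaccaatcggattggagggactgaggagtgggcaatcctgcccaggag
lnc-GBE1-6 probe: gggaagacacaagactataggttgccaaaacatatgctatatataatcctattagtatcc

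**Figure D2:**
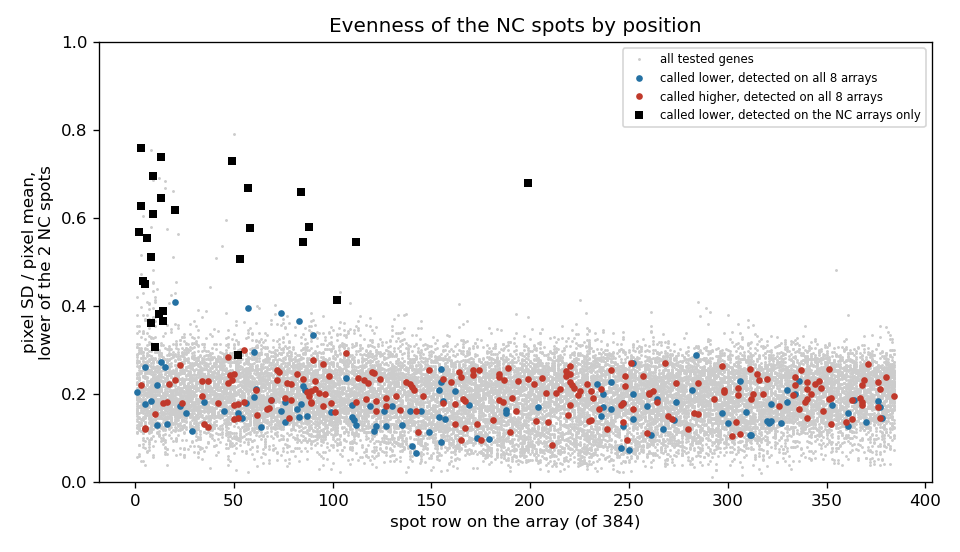
Pixel SD over pixel mean of the more even of the 2 NC spots (y axis) against the spot row of the probe on the array (x axis) for each tested gene; points are genes, coloured by call and detection. The 28 genes detected on the NC arrays only (black squares) lie above most genes, and 27 of them lie in the first 128 rows, while genes called on all 8 arrays are spread over all rows.

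In the opposite direction, 74 of the 288 higher genes were not detected on the NC arrays, that is, their probes were not well above background there. They passed the filter on detection through the mimic arrays alone, so their calls are no evidence of a difference either. The noncoding RNA lnc-B3GAT2-2 read -3.90 and -3.34 with NC and -1.95 to -0.90 on the mimic arrays, at least 2.65-fold higher. LOC101929470 read -4.85 and -4.81 with NC, -0.41 and -0.19 with miR-629-3p, and -2.82 to -1.86 with the other mimics, at least 2.30-fold higher. LINC00336 and XLOC_l2_011885 were at least 1.22-fold and 1.03-fold higher, so little of their fitted difference is measured. Uneven NC spots were seen in 2.70% of the 74. Detection reached lower on the mimic arrays: the dimmest detected signal was -2.84 and -2.82 on the NC arrays and -3.74 to -2.85 on the mimic arrays.

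Interferon-stimulated genes and genes of double-stranded RNA sensing were lower with the mimics where they passed the test. Of 51 measured genes of this list, 6 were called lower and 0 higher, 11.8% against the 2.04% of all genes. The median difference of the list was -0.191, against 0.0212 over all genes. By role, 1 of 12 sensors and signalling genes was called (TLR3), 5 of 37 effectors and 0 of 2 interferons and chemokines. IFNB1, IFNL1, CXCL10 and CXCL11 were among the members not measured.

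The called effectors have different roles. IFITM3, a membrane protein that blocks virus entry, read 7.46 and 7.49 with NC, 6.86 and 6.94 for miR-629-3p, 7.27 and 7.25 for miR-210-3p, while miR-874-3p gave 7.15 and 7.16. It fell by 0.37 ± 0.05 (SE), 1.29-fold, with an adjusted p of 0.0395 in limma. IFITM2 moved likewise, by -0.38, but its sequence is close to that of IFITM3, so the probes may not be independent. UBE2L6, the enzyme that conjugates ISG15, fell by 0.40 and USP18, which removes ISG15, by 0.39. BST2, or tetherin, which holds virus particles on the cell, fell by 0.87 in the mean. Its differences were -1.14 for miR-629-3p and -1.31 for miR-210-3p, while its miR-874-3p arrays (-1.70 and -1.22) overlapped with NC (-1.25 and -1.36).

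Many well-known interferon-stimulated genes were not called, and in several the mimics had opposite signs. OASL differed by 1.65 after miR-629-3p and by -1.66 after miR-210-3p. DDX60 differed by 2.58 and -1.18, and IFIT1 by 0.91 and -0.38. IFITM1 passed the adjusted p (0.0185 in limma) with differences of -1.42, -1.48 and 0.17, so it was not counted. In the list, 20 of 51 genes were lower with one sign (39.2%, against 17.7% of all genes) and 0 higher (against 23.9%).

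Antigen presentation by MHC class I showed the same direction. Of 15 genes, PSMB9 and HLA-F were called lower (13.3%, against 2.04% of all genes), and the median was -0.294, or -0.161 in slide row 2 alone. One sign downwards was seen in 10 (66.7%, against 17.7% of all genes) and upwards in 1 (6.67%, against 23.9%). PSMB9, a catalytic subunit of the immunoproteasome, read 5.16 and 5.25 with NC, 4.17 and 4.21 with miR-629-3p, and 4.79 to 4.81 on the other 4 mimic arrays. HLA-F, a nonclassical chain, read 4.93 and 4.89 with NC and 4.10 to 4.70 with the mimics, and its second probe differed by -0.60 against -0.59. TAP1, the peptide transporter, and HLA-B differed by -0.35 and -0.37, with adjusted p-values of 0.0522 and 0.0579 in limma. HLA-E differed by 0.03. HLA genes are alike in sequence, so their probes may read each other's transcripts. Of the NF-kB and cytokine list, 1 of 24 genes was called (4.17%): TNFAIP2 fell by 0.42 in the mean, with differences of -1.03 for miR-629-3p and of -0.14 and -0.08 for the other mimics.

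Immediate early genes, which growth factors and stress switch on within minutes through MAPK signalling, were higher with the mimics where they were called. Of 25 measured, 6 were called higher and 0 lower (24.0% against 2.04%), and the median was 0.311, but 0.104 in slide row 2 alone. With one sign, 14 were higher (56.0%, against 23.9% of all genes) and 1 lower (4.0%, against 17.7%). EGR1, a zinc finger transcription factor, read 4.49 and 4.82 with NC, 5.87 and 5.63 for miR-629-3p, 5.49 and 5.62 for miR-210-3p, while miR-874-3p gave 4.94 and 5.00. All mimic arrays were above NC, with miR-874-3p nearest, and the mean difference was 0.77 ± 0.12 (SE; limma adjusted p = 0.0422).

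CTGF, a secreted matricellular protein, differed by 1.22 after miR-629-3p, 1.07 after miR-210-3p and 0.49 after miR-874-3p. IER2 differed by 0.76 and 0.80 with miR-629-3p and miR-210-3p, whereas with miR-874-3p it was at 0.04, inside the NC range. DUSP6, a phosphatase that restrains ERK, differed by 0.37, 0.77 and 0.61. FOSB, a partner of JUN in AP-1, was detected on 4 mimic arrays and on neither NC array, so it passed the filter through the mimics alone, and its mean difference fell from 0.83 to -0.01 when every signal was floored at the dimmest detected one. FOS (0.56) and KLF4 (0.78) had one sign but adjusted p-values of 0.0898 and 0.0884 in limma. The 6 calls of this list include FOSB and also ATF3, which is counted again among the amino acid stress genes below.

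ATF3, DDIT3 and CHAC1 were the called genes of the amino acid stress and unfolded protein response, 3 of 30 (10.0%, against 2.04% of all genes), all higher. All 3 belong to the amino acid response, where 3 of 17 were called, while 0 of 13 chaperone and endoplasmic reticulum genes were. DDIT3, the transcription factor CHOP, read 0.77 and 0.83 with NC, 2.29 and 2.26 for miR-629-3p, 1.24 and 1.27 for miR-210-3p, while miR-874-3p gave 1.08 and 1.03. Its differences were 1.48, 0.45 and 0.25 (limma adjusted p = 0.0118 for their mean). CHAC1, which degrades glutathione, differed by 2.08, 1.07 and 0.16, and its miR-874-3p arrays (2.55 and 2.17) overlapped with NC (1.92 and 2.48). The 3 probes of ATF3 other than the brightest gave 0.95, 0.22 and 0.66, all in the direction of its 0.53. ATF4, the upstream factor, was at 0.15 (adjusted p = 0.316).

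Targets of p53 moved in both directions. Of 21 measured, 2 were called higher and 2 lower (19.0%, against 2.04% of all genes). GADD45A, a growth arrest gene, and PMAIP1, which encodes the death protein NOXA, rose by 0.70 and 0.65. SFN, an arrest gene of epithelia, and FDXR, a mitochondrial reductase, fell by 0.52 and 0.57. The list median was 0.0537.

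**Figure D3:**
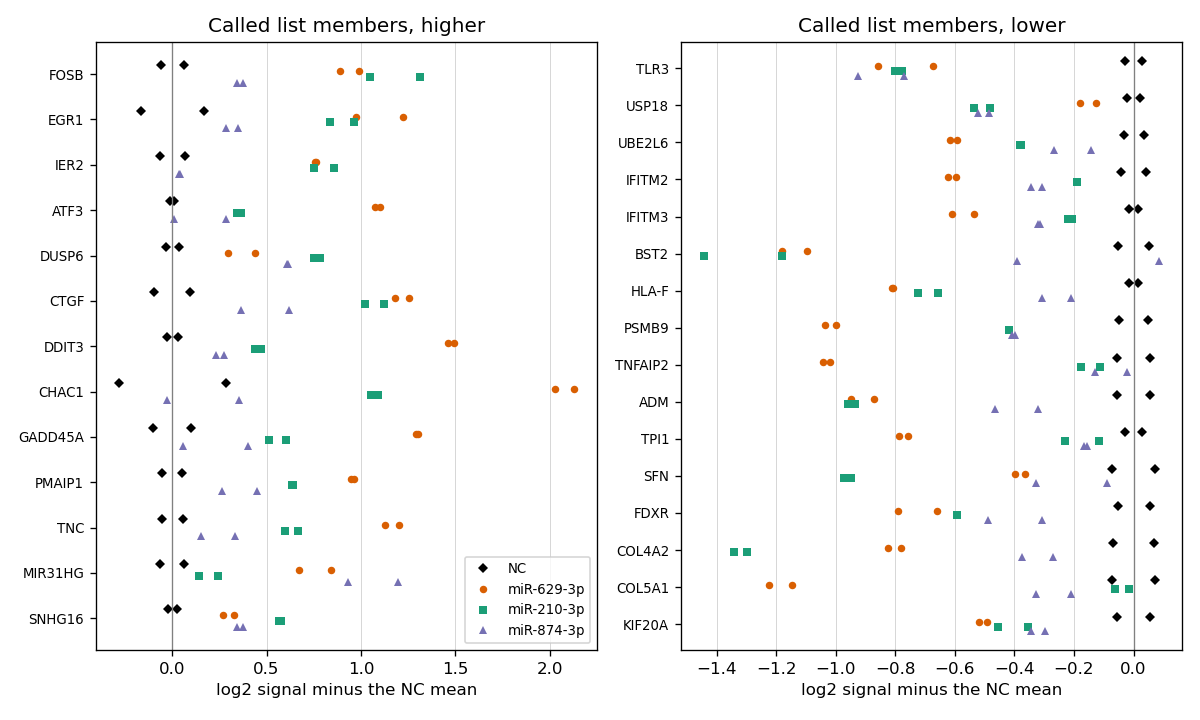
Log2 signal of each array minus the NC mean of the gene (x axis) for the called members of the gene lists (y axis), higher on the left and lower on the right; each point is 1 array, 2 per group. For most of these genes the miR-874-3p arrays (triangles) lie nearest to NC, and for CHAC1, GADD45A, IER2, BST2, TNFAIP2 and COL5A1 the mimic arrays overlap with the NC arrays.

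The remaining lists held few calls. ADM and TPI1 were lower among 33 hypoxia and glycolysis genes (6.06%, against 2.04% of all genes), by 0.75 and 0.37, and the list median was -0.313, the lowest of the 15, but 0.0332 in slide row 2 alone. ADM, the vasoactive peptide adrenomedullin, read 5.81 and 5.92 with NC and 4.91 to 5.54 with the mimics. Among 38 matrix and mesenchymal genes, the basement membrane collagen COL4A2 and COL5A1 were called lower and TNC, tenascin C, higher (7.89%). COL5A1 differed by -1.19 after miR-629-3p and by -0.04 after miR-210-3p, and 2 other probes of it gave mean differences of 0.36 and 0.14. The mitotic kinesin KIF20A was the only call among 34 replication and mitosis genes (2.94%, near the 2.04% of all genes), at -0.41. With one sign, 11 genes of that list were lower (32.4%, against 17.7% of all genes) and 0 higher (against 23.9%).

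Of the host genes of small RNAs, 2 of 15 were called (13.3%, against 2.04% of all genes). SNHG16 rose by 0.41. MIR31HG, the host of miR-31, rose by 0.67, but its second probe differed by -0.12. No call was made among 20 genes of the miRNA machinery, 30 of sterol and fatty acid synthesis, 29 keratins and cornification genes, 28 of lysosome and autophagy and 23 NRF2 targets and metallothioneins. The largest values there were SC5D (0.89), a late enzyme of cholesterol synthesis, PMVK (-0.43), SPRR2A (0.86), KLK13 (-0.67), WIPI1 (0.41), CTSL (-0.36), AKR1C1 (0.71), SLC7A11 (0.61), DCP1A (0.36) and DGCR8 (-0.29). SLC7A11, the cystine transporter, had an adjusted p of 0.0317 in limma, but its differences were 2.01, -0.37 and 0.20. Lists without a call also leaned to one sign. Keratins and cornification genes were lower with one sign in 37.9% (all genes 17.7%), near the 39.2% of the interferon list. Sterol and fatty acid genes were higher in 40% and miRNA machinery genes in 35% (all genes 23.9%). Lysosome and NRF2 lists had 14.3% and 13% higher, and 10.7% and 0% lower.

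**Figure D4:**
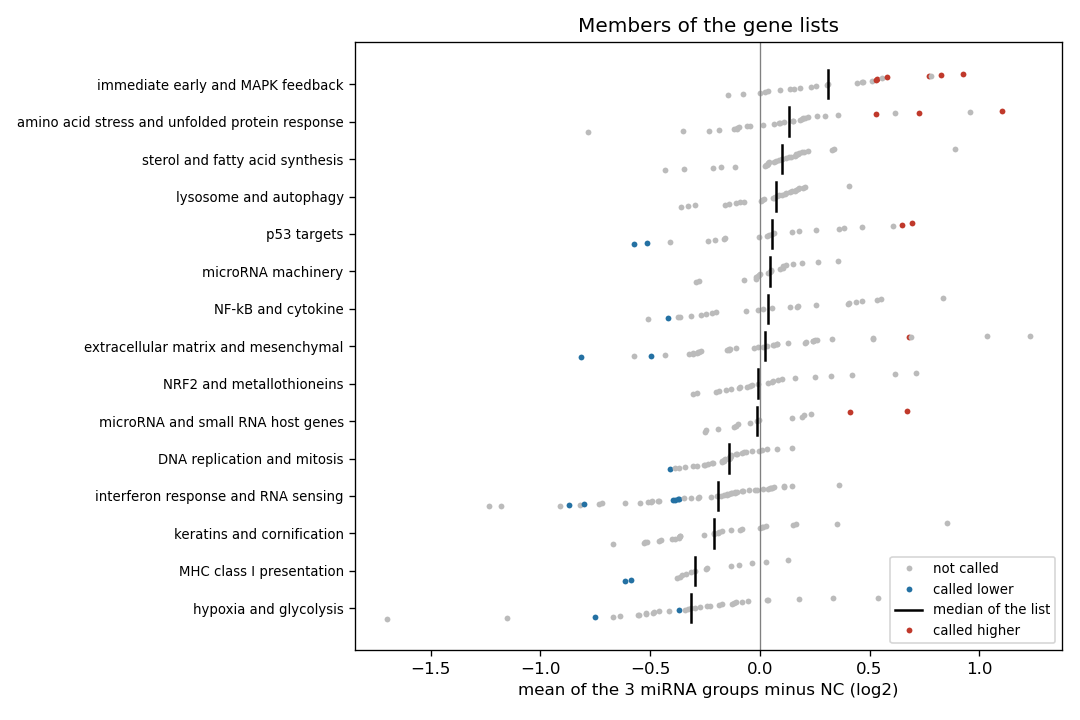
Mean of the 3 miRNA groups minus NC (x axis, log2) for each measured member of 15 gene lists (y axis); points are genes, coloured by call, and the black bar is the median of the list. Called genes lie to the right for immediate early genes (median 0.311) and to the left for interferon and MHC class I genes (medians -0.191 and -0.294), with most members uncalled.

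Promoters were searched because called genes of a list might share letters there. The windows run from 250 bases before to 50 after the RefSeq start on GRCh38.p14, and were found for 154 higher, 84 lower and 11945 tested genes. The core of the interferon-stimulated response element, searched like all motifs on both strands, was in 7 lower genes (8.33%), 5 higher (3.25%), 2.94% of all tested and 3.65% of all promoters in the table. The AP-1 motif (TGANTCA) was in 10.4% of higher, 5.95% of lower and 5.26% of tested genes. TGATGCAA, the core of the amino acid response element, was in 4 higher genes (2.60%), 1 lower (1.19%) and 0.536% of tested genes. TATAAA was in 8.44%, 8.33% and 6.92%, and CACGTG in 7.79%, 14.3% and 9.79%. TCACNCCAC, a sterol element, was in 4 higher genes (2.60%), 0 lower and 1.11% of tested. Several of these counts are small, a match describes letters only, and no test was made.

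The promoter of IFITM3 (chr11:320811-321110, minus strand) held the response element core at 2 places. That of LURAP1L-AS1 (chr9:12814340-12814639, minus strand) held the AP-1 motif, TGATGCAA and TATAAA. Both are printed 5′ to 3′ with the motifs in capitals.
IFITM3: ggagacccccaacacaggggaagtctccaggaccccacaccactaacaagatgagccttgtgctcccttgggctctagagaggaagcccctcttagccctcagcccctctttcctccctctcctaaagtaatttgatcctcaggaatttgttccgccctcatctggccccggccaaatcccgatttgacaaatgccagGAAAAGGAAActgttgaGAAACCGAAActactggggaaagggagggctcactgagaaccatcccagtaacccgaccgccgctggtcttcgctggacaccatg
LURAP1L-AS1: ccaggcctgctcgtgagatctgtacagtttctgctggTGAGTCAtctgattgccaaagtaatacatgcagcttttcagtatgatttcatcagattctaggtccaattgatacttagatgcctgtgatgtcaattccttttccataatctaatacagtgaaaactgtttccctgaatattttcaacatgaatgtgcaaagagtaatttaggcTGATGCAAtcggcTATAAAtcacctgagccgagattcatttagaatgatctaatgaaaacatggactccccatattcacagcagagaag

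Windows around some of the matches in other named genes show the same letters in place. Further matches are not printed, among them the AP-1 motif in the lower genes BTN3A2 and SFN. The TLR3, HLA-F and CHAC1 matches are on the reverse strand. They lie on GRCh38.p14 at chr4:186069144-186069169 (TLR3), chr19:17405743-17405768 (BST2), chr6:29723270-29723295 (HLA-F), chr19:55370545-55370567 (IL11) and chr15:40953254-40953277 (CHAC1).
TLR3: agctttacTTTCACTTTCgagagtgc
BST2: ctttctggGAAACTGAAActgaaaac
HLA-F: ccccagagTTTCTCTTTCtctcccaa
IL11: agggagggTGAGTCAggatgtgt
CHAC1: ccctgccgTTGCATCActcctgcc

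The size of the difference varied between the mimic groups. Among the 288 higher genes, miR-874-3p was nearest to NC in 185, miR-210-3p in 72 and miR-629-3p in 31, and the median differences were 0.413, 0.729 and 0.900 in that order. Among the 147 lower genes, miR-874-3p was nearest in 84, miR-210-3p in 33 and miR-629-3p in 30, with medians of -0.403, -0.623 and -0.809. The miR-874-3p arrays shared slide row 2 with NC, so miRNA and slide row cannot be told apart here. Within row 2, a fit of miR-874-3p and NC alone called 7 genes higher and 2 lower, of which 3 were among the 435.

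The called genes differed in kind from the genes tested. They include the 74 higher and 28 lower genes that passed the filter on detection only through the group in which they were high. The part of that filter in the shares below was not tested. The promoter shares and the sizes by mimic group above include these genes too. Protein-coding genes were 52.1% of those higher and 67.3% of those lower, against 62.9% of all tested. The median GC content of the probes was 40.0% for the higher, 43.3% for the lower and 45.0% for all tested genes. For 49 higher genes another probe was detected on all 8 arrays, and 62 of their 69 other probes differed in the same direction. For 21 lower genes the same held for 17 of 22 probes. When one sign against each miRNA was also required, 50 of the 69 and 11 of the 22 remained. The median differences of the other probes were 0.383 for higher genes and -0.19 for lower genes. These probes were read on the same arrays.

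The number of calls rested on single arrays and on the groups included. Without miR-629-3p replicate 1 or 2, 24 and 26 of the 435 genes remained called, and without miR-210-3p replicate 1 or 2, 25 and 23. Without miR-874-3p replicate 1 or 2, 373 and 393 remained, and without NC replicate 1 or 2, 87 and 51. Without both miR-874-3p arrays, where 2 miRNAs had to share a sign, 1438 genes were called higher and 836 lower. Of the 56 called genes named here, 5 were called with each array left out in turn: IL11, LOC101929470, lnc-TPSG1-2, lnc-PML-1 and lnc-GBE1-6. Of these only IL11 was detected on all 8 arrays; the others passed the filter on detection through the group in which they were high, which favours a call under any setting. Higher genes made up 66.2% of the calls. Their share was 85.0% with arrays scaled to the spike-in probes and 56.2% with arrays centred on the median of the kept probes. They were the majority in most settings but not in all. The share was 18.2% with the 6 mimic arrays as 1 group and 31% by the methods' t-test. It was 38.9% without the miR-629-3p arrays and 40% with no filter on detection. Higher genes were also the minority with either NC array left out and with miR-210-3p replicate 2 left out.

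**Figure D5:**
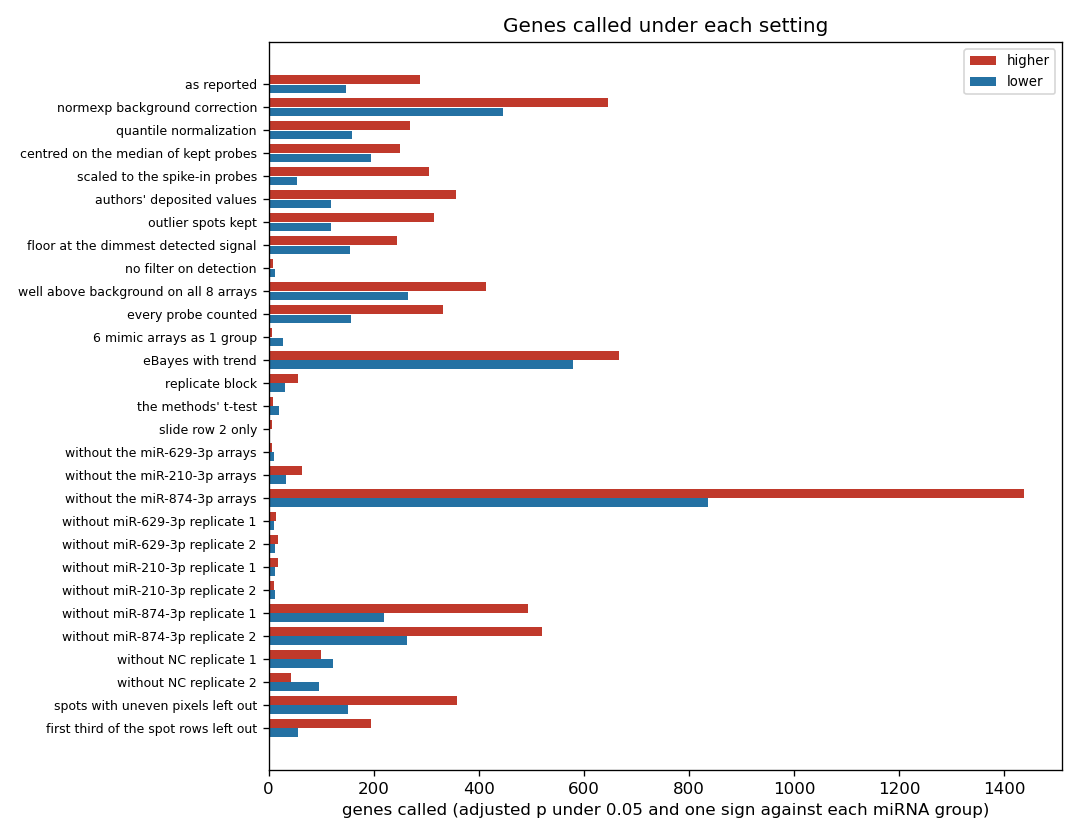
Number of genes called higher (red) and lower (blue) with the mimics (x axis, bars from 0) under each setting (y axis), as reported at the top. The bars range from under 10 genes to 1438, and short bars belong to settings that drop 1 or both arrays of a miRNA of slide row 1, keep only row 2, drop the filter on detection, treat the 6 mimic arrays as 1 group, block on the replicate number or use the methods' t-test.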

How the data were processed

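The members, gene lists and tests were chosen with earlier results of these data known. For each array the authors deposited scanner output (Agilent Feature Extraction 11.5.1.1 per the labels) as intensity values: a background-subtracted processed signal, pixel means and SDs, local background and flags, with no normalization between arrays. The authors also deposited log2 values of the same arrays, which equalled the values used here up to a constant offset for each array of -0.0488 to 0.00394. That offset apart, scale and centring were thus known.

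RNA (100 ng in the labels, from a QIAzol and miRNeasy extraction, while the methods name RNeasy) was labelled in 1 colour. Here the processed signal was divided by the 75th percentile of each array over gene probes and put on the log2 scale, control spots and 87 to 346 outlier spots per array being left out. Kept probes had a value on all 8 arrays and passed the well-above-background flag on each array of some group. The brightest probe of each of 43317 names was used, which left 21283 genes. Of these, 15490 matched RefSeq genes. Coordinates of probes are those of the array on hg19.

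limma 3.58.1 in R 4.3.3 was fitted across all genes on all 8 arrays with 4 group means and no covariate (4 residual and 1.68 prior degrees of freedom). The contrast was the mean of the 3 miRNA means minus NC. The p-values were adjusted over all genes by Benjamini-Hochberg. Named genes were the 10 in each direction with the largest of their smallest differences among called genes detected on all 8 arrays without overlap between NC and mimic arrays, 4 in each direction among called genes not detected on every NC array (higher) or on every mimic array (lower), and the called members of 15 lists, or the 2 largest where none was called. Other genes were named after their values were seen. For a gene not detected in a group, the fold is given as at least the ratio to the dimmest detected signal of those arrays or the gene's own signal, whichever was higher.

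Slide row could not be fitted beside the groups. The fit was tested on simulated data. Alternatives covered background correction, scaling, filters, other tests and left-out arrays or groups; leaving out uneven spots, or the first 128 spot rows, was chosen after seeing the data.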

Additional observations from a re-analysis of the deposited data

Results flagged for a closer look

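The 3 mimics differed from each other, by limma's F test at an adjusted p under 0.05, in these genes called against NC. The miR-874-3p arrays lay in another slide row than those of the other mimics, so miRNA and slide row cannot be told apart in these ranges. The range of the 3 group means on the log2 scale was widest in LOC101929470 (2.20), IL11 (2.08), CHAC1 (1.92), UBD (1.81) and ADAMTS6 (1.60). It was 1.22 in DDIT3, 1.16 in BST2, 1.15 in COL5A1 and 1.07 in GADD45A. Ranges under 1 were seen in COL4A2 (0.996), TNFAIP2 (0.955), ATF3 (0.937), TNC (0.922), lnc-B3GAT2-2 (0.917), MIR31HG (0.873) and FOSB (0.822). Then came EGR1 (0.782), IER2 (0.765), SFN (0.753), CTGF (0.727) and LURAP1L-AS1 (0.694). Smaller ranges were those of CASC21 (0.635), KIAA1644 (0.617), PSMB9 (0.615), TPI1 (0.611), PMAIP1 (0.599), ADM (0.552), HLA-F (0.550), IFITM2 (0.419), DUSP6 (0.401), UBE2L6 (0.401), IFITM3 (0.359) and USP18 (0.357).

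Control spots of the ERCC type, which the comparisons do not use, were well above background in 36 of 420 spots on miR-629-3p replicate 1 and in 26 on replicate 2, against 19 and 17 on the NC arrays.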

How the results depend on the processing

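Direction held more often than significance. The genes were called for one sign against each miRNA on these same arrays, so a kept direction is no further evidence of a difference. For the 56 called genes named here, 28 alternatives gave 1537 values, of which 864 kept direction and call, 671 kept direction only and 2 reversed. The reversals were FOSB at -0.0084 with a floor at the dimmest detected signal and MIR31HG at -0.12 without the first 128 spot rows, where its other probe was used. Genes never called also changed sign: SPRR2A (-0.45) and AKR1C1 (-0.088) with the floor, KLK13 (0.33) in slide row 2 alone, AKR1C1 (-0.074) and SLC7A11 (-0.084) without the miR-629-3p arrays, and DGCR8 and SPRR2A without NC replicate 1 (DGCR8 0.047 and SPRR2A -0.013, against -0.62 and 1.72 without NC replicate 2). List medians ranged from -0.396 to -0.107 for interferon genes, from -0.363 to -0.161 for MHC class I, from 0.104 to 0.454 for immediate early genes and from 0.0211 to 0.210 for amino acid stress. The cause was not tested for any of the changes in counts that follow.

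Genes called higher and lower (288 and 147 as reported) numbered 645 and 447 with normexp background correction, 666 and 579 with a trend in eBayes, 8 and 12 with no filter on detection, 6 and 27 with the 6 mimic arrays as 1 group, 9 and 20 by the methods' t-test, 7 and 2 in slide row 2, 7 and 11 without the miR-629-3p arrays, 63 and 34 without the miR-210-3p arrays, and 1438 and 836 without the miR-874-3p arrays. They numbered 306 and 54 with spike-in scaling and 413 and 265 with detection on all 8 arrays. Without the first 128 spot rows they were 194 and 55. With 1 array left out, the counts were 11 to 521 higher and 11 to 263 lower.

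At the unadjusted p and 2-fold (250 and 106), the counts were 5 and 19 with normexp, 38 and 41 with detection on all 8 arrays and 378 and 162 without the miR-874-3p arrays. The higher count was 48 with the floor and 131 by the methods' t-test. The lower count was 711 with no filter, 31 without uneven spots and 14 without the first 128 spot rows. Leaving out 1 array gave 232 to 377 higher and 89 to 236 lower. A lone array of a group was assumed to vary like the other groups. Genes that differed among the 3 miRNAs (5626) numbered 1726 with no filter and 1105 to 6413 with 1 array left out.

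The share of genes with NC at an end (41.6%) was 39.8% with normexp, 40.4% with quantile normalization, 42.3% centred on the median, 38.7% with spike-in scaling, 40.0% with the floor, 50.9% with no filter, 39.4% with detection on all 8 arrays, 40.9% without uneven spots and 39.8% to 47.6% with 1 array left out. Replicate numbers did not pair the samples, since deviations of arrays with the same number correlated by -0.106 to 0.034. With the replicate number as a block (the replicate block), 55 genes were called higher and 31 lower and 3348 differed among the miRNAs. Signal over background limits what can be measured: 42.2% to 49.8% of probes were well above background.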
